A study of Mus musculus with 52 samples.

Results

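Of the 52 samples in the series, 4 are RNA-seq libraries that set the endothelial cells (ECs) of the wild-type (WT) posterior pituitary against the other cells of the same dissection. They were chosen by label alone: 2 libraries of GFP-positive and 2 of GFP-negative sorted cells. The WT mice were adult males of the Tie2-GFP genotype, in which regulatory sequences of Tie2 (Tek), a receptor gene of ECs, drive green fluorescent protein, and the WT groups carried no further allele. Each library came from a pool of 20 to 30 mice aged 30 to 90 days, whose posterior lobes were separated from the anterior lobes by hand, dissociated with papain and sorted by flow cytometry. A GFP-negative library therefore holds every viable cell that did not fluoresce, and not a purified cell type. The matching WT libraries of the anterior pituitary and of the cerebellum, 4 of each and made from the same kind of mouse, were used to show where posterior pituitary ECs differ, and 2 ATAC-seq libraries of WT posterior pituitary GFP-positive cells gave the open chromatin. By the paper's methods, both lobes were taken from the pooled pituitaries and kept in separate tubes, so anterior and posterior libraries can share mice. The tests below treated all libraries as independent. The estimate of spread behind every p-value, the scaling of libraries and the filter on low counts also drew on 12 sorted libraries of the same tissues from adult male Tie2-GFP; Pdgfb-CreER; BcatEx3fl mice (Ctnnb1 flex3/+), in which a Cre driven by Pdgfb in ECs stabilizes beta-catenin after 4-hydroxytamoxifen, of which 100 ug was given at postnatal day 10. No level or fold change of those mice is used here.

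The posterior pituitary, or neurohypophysis, is where axons from the hypothalamus release vasopressin and oxytocin into the blood. Its capillaries are fenestrated: their ECs are pierced by pores that are closed by diaphragms made of the protein PLVAP, which lets peptides cross a wall that is sealed elsewhere in the brain. The resident glia of the neurohypophysis are the pituicytes, and in the mouse the intermediate lobe, made of melanotrophs that process proopiomelanocortin, lies against it. In most of the brain, Wnt/beta-catenin signaling in ECs maintains the blood-brain barrier, which vessels of this type lack.

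The GFP-positive libraries held 28788137 and 17260078 estimated reads and the GFP-negative libraries 34681485 and 18406617. Levels below are TPM, the number of transcripts of a gene per fixed total of transcripts, a measure per length that allows genes to be compared, and are always given for replicate 1 and then replicate 2. Differences are log2 fold changes of estimated read counts, GFP-positive over GFP-negative, from edgeR's quasi-likelihood test, with p adjusted by the method of Benjamini and Hochberg across all 21343 genes that were tested, each with its standard error (SE). A gene was called when the adjusted p was under 0.05 and the fold change at least 2, and was called enriched when it also reached 10 TPM in both libraries of the higher group. The log levels of the 2 GFP-positive libraries correlated at 0.851 across genes and those of the 2 GFP-negative libraries at 0.832, against 0.662 to 0.716 between the groups. Genes are not independent replicates, and these correlations are a description only. Genes of the mitochondrial genome took 15.6% and 9.63% of all TPM in the GFP-positive and 28.0% and 17.7% in the GFP-negative libraries.

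The sort was checked on Tek, the gene whose regulatory sequences drive the fluorescent protein. Tek (GRCm38 chromosome 4, 94739289 to 94874976, plus strand) stood at 249 and 208 TPM in the GFP-positive libraries and at 0.575 and 0.00848 TPM in the GFP-negative libraries. The groups were far apart, and the log2 fold change was 8.69 ± 1.61 (SE; adjusted p = 0.000895, edgeR, n = 2 and 2). Without GFP-negative replicate 1, in which nearly all of the GFP-negative level of Tek was found, it was 14.25. The 20 EC markers examined summed to 9059 and 6862 TPM in the GFP-positive libraries and to 8.73 and 3.66 TPM in the GFP-negative libraries. The median marker had 0.0174% and 0.00481% of its GFP-positive level in the GFP-negative libraries, so that few EC transcripts were left there.

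The GFP-negative libraries did not carry the profile of pituicytes alone. Pomc (chromosome 12, 3954951 to 3960642, plus strand), the precursor of melanocyte-stimulating hormone, stood at 53739 and 55689 TPM, which is 5.37% and 5.57% of all TPM. In the GFP-positive libraries Pomc stood at 3307 and 470 TPM, and the log2 fold change was -5.77 ± 1.42 (SE; adjusted p = 0.00853, edgeR). The GFP-negative cells of the anterior pituitary, where corticotrophs express the same gene, held 6188 and 6604 TPM of Pomc.

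Further genes of melanotrophs went the same way as Pomc. Pax7, the transcription factor that sets melanotrophs apart from corticotrophs, was listed at 36.7 and 50.4 TPM in GFP-negative and 1.18 and 0.0299 TPM in GFP-positive cells (log2 fold change -5.84 ± 1.32, adjusted p = 0.00714, and -9.58 without GFP-positive replicate 1). The prohormone convertase Pcsk2 stood at 178 and 246 against 5.77 and 1.12 TPM, the lineage factor Tbx19 at 47.6 and 119 against 1.17 and 0.11 TPM, and the dopamine receptor Drd2 at 73.6 and 138 against 1.78 and 0 TPM. In all, 5 of 6 melanotroph markers were called lower in GFP-positive cells, where 7.45% of all genes tested were called lower, and Pcsk1 was not called (adjusted p = 0.057). The median melanotroph marker had 2.71% and 0.1% of its GFP-negative level in the GFP-positive libraries, so that GFP-positive replicate 1 carried more of these transcripts than replicate 2. In libraries of mixed cells, a lower level can come from fewer cells of a type or from less RNA per cell, and these cannot be told apart.

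Of 10 pituicyte markers, 3 were lower and 1 was higher in GFP-positive cells, where 7.45% of all genes were lower and 7.07% higher. Six6, a homeobox gene of the pituitary and eye, was at 9.07 and 16 TPM in GFP-negative cells and at 0.0144 and 0 TPM in GFP-positive cells. Col25a1, a transmembrane collagen, was at 36.6 and 33.7 against 1.55 and 1.83 TPM, but its call was lost without GFP-positive replicate 1 (adjusted p = 0.0608). Scn7a, a sodium channel of glia, was at 12.9 and 8.93 against 1.53 and 0 TPM, and its call was lost without GFP-positive replicate 2 (adjusted p = 0.052) and without GFP-negative replicate 1 (adjusted p = 0.106). Of the regulators of the lineage, Rax was at 0 and 8.76 TPM in GFP-negative cells and at 0 in both GFP-positive libraries, so the groups overlap, and it was not called (adjusted p = 0.216). Nkx2-1 was at 0.992 and 0.037 against 0.709 and 0.0716 TPM and was not called either. S100b stood at 0.434 and 0.09 TPM in GFP-negative cells, with a higher mean of 1.63 TPM in GFP-positive cells. Gfap was listed at 0 in every library. Vim, an intermediate filament shared with ECs, was the marker called higher in GFP-positive cells (330 and 117 against 11.1 and 20.6 TPM). For 5 of the 10 pituicyte markers both GFP-negative libraries lay above both GFP-positive ones, as for 18.5% of all genes, and the median log2 fold change of the 10 was -3.32. Between 2 and 3 were lower with a library left out. The ECs were therefore compared with cells rich in melanotroph transcripts, which are called GFP-negative cells here.

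**Figure D1:**
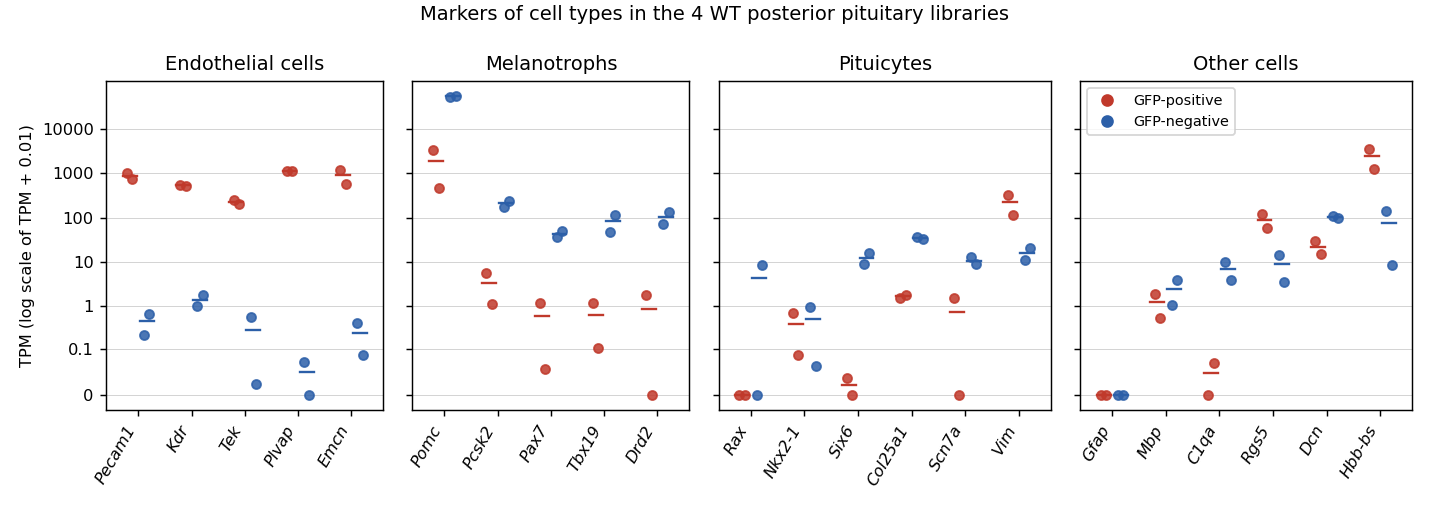
Level (TPM, log scale with 0.01 added) of markers of ECs, melanotrophs, pituicytes and other cells in the 2 GFP-positive (red) and 2 GFP-negative (blue) WT posterior pituitary libraries, with bars at the mean of 2. Every EC marker shown is at or above 208 TPM in GFP-positive cells and at or below 1.84 TPM in GFP-negative cells, Pomc reaches 53739 and 55689 TPM in the GFP-negative libraries, and Rax and Nkx2-1 stay at or below 8.76 TPM throughout.

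In GFP-positive cells 6 of 8 pituitary stem and epithelial markers, 3 of 8 neuronal markers and 5 of 9 anterior lobe endocrine markers were lower, where 7.45% of all genes were lower, and none of these 25 was higher. These counts moved with single libraries: without GFP-positive replicate 2 they were 3, 2 and 2, and without GFP-negative replicate 1 the endocrine count was 3, whereas without GFP-negative replicate 2 the stem and epithelial count was 4. Of the endocrine markers called, Tshb (0 and 1.07 TPM in GFP-negative cells) and Lhb (15.9 and 0 TPM) were at 0 in both GFP-positive libraries, so the levels of the groups overlap. Epcam, an adhesion molecule of epithelia, stood at 74.3 and 140 against 1.97 and 2.84 TPM (log2 fold change -5.53 ± 0.41, adjusted p = 1.4e-07). Of the neuronal markers not called, Stmn2 was at 22.9 and 7.12 TPM in GFP-positive and 4.16 and 1.68 TPM in GFP-negative cells (adjusted p = 0.245). Vasopressin (Avp) and oxytocin (Oxt) are made in the hypothalamus, and neither was called, with Avp at 3.19 and 0 TPM and Oxt at 2.87 and 0 TPM in GFP-positive cells and both at 0 in the GFP-negative libraries. None of 10 oligodendrocyte markers was called, and of 10 microglial markers 3 were lower in GFP-positive cells, each of which lost its call when at least 1 of the 4 libraries was left out. Of 9 astrocyte markers 2 were higher and 3 lower, beside 7.07% and 7.45% of all genes. Gja1, a connexin that ECs also make, was at 413 and 51.8 against 2.57 and 32.2 TPM and Fgfr3 at 8.5 and 57.6 against 0.0355 and 0 TPM, whereas Slc1a3, a glutamate transporter of glia, was at 1.13 and 0.0571 against 17.2 and 40.9 TPM, with Aqp4 and Aldoc lower as well. Of 6 fibroblast markers 2 were lower (Dcn and Fbln1), a count that fell to 0 without either GFP-positive library and to 1 without GFP-negative replicate 1.

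Of 10 pericyte markers, 4 were higher, where 7.07% of all genes were higher: Rgs5 (123 and 59.4 against 14.3 and 3.61 TPM), Kcnj8 (8.91 and 6.54 against 0.0101 and 0 TPM), Pdgfrb (4.86 and 3.23 against 0.168 and 0.0191 TPM) and Abcc9 (5.69 and 12.0 against 2.64 and 0.371 TPM). The defining pericyte genes Cspg4 and Higd1b were at 0.414 and 0.507 and at 1.2 and 0 TPM in GFP-positive cells, and Notch3 at 0.155 and 0.089 TPM. The 10 together summed to 154 and 82 TPM in GFP-positive against 18.1 and 9.55 TPM in GFP-negative cells, and their part in the results below was not tested. The 5 erythrocyte markers summed to 5289 and 1548 TPM in GFP-positive and to 190 and 9.37 TPM in GFP-negative cells. Hba-a1, an alpha-globin gene, stood at 769 and 304 TPM in GFP-positive cells and at 0 in both GFP-negative libraries, but it has a near-identical copy, Hba-a2, between which reads can be split and which was at 1.12 and 0 against 18.1 and 0.636 TPM and not called. Alas2 was also higher (27.2 and 0.227 against 0.103 and 0 TPM), though its call was lost without GFP-positive replicate 1, and the beta-globin genes Hbb-bs and Hbb-bt were not called. The 2 of 5 erythrocyte markers called became 1 without GFP-positive replicate 1, and 4 without GFP-positive replicate 2 or without GFP-negative replicate 1. Of 5 markers of lymphatic ECs none was higher in GFP-positive cells and 1 was lower, beside 7.07% and 7.45% of all genes. The lower marker was Prox1 (0.966 and 1.48 against 16.3 and 43.4 TPM). Lyve1 was at 0.968 and 0 TPM and Pdpn at 0 in GFP-positive cells.

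Over all genes, 1510 were higher in GFP-positive cells, which is 7.07% of those tested, and 1591 were lower, which is 7.45%. The median log2 fold change of all genes tested was 0. Of these, 1150 genes (5.39%) were enriched in GFP-positive cells and 781 (3.66%) in GFP-negative cells, of which 1126 and 762 code for proteins. In 74 of the 1150 both GFP-negative libraries held 0 reads. TPM overlapped between the groups for 53 of the 1150 and 73 of the 781. With the 4 posterior pituitary libraries fitted alone the counts were 731 higher and 534 lower.

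**Figure D2:**
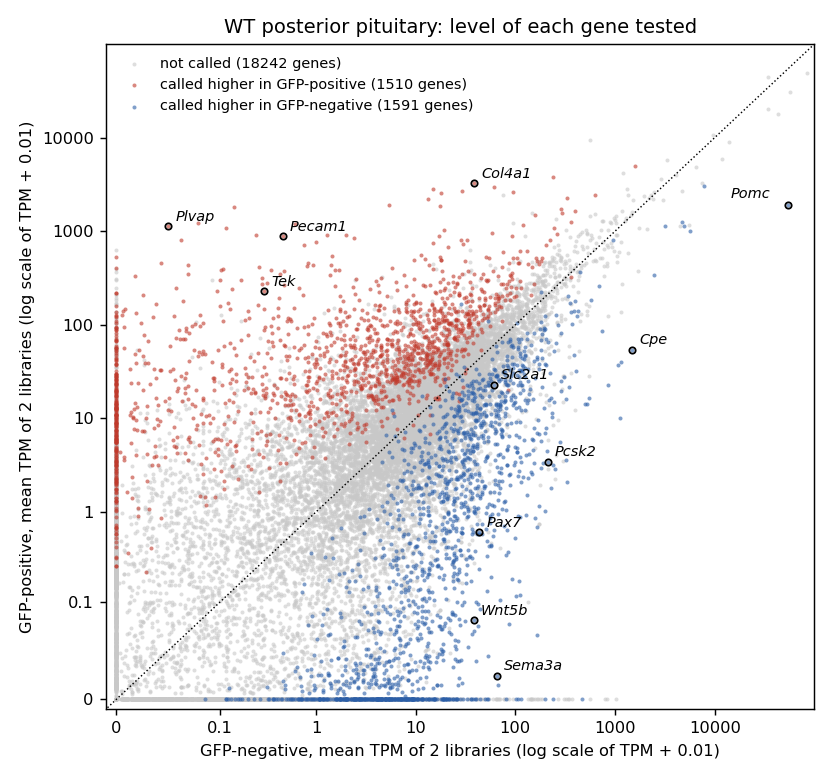
Mean TPM of the 2 GFP-positive libraries against the mean TPM of the 2 GFP-negative libraries for each of 21343 genes (log scales with 0.01 added), with 1510 genes called higher in red and 1591 called lower in blue. Plvap, Pecam1 and Tek lie at the upper left, Pomc at the far right, and Slc2a1, the glucose transporter, below the line of equal level.

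All 20 EC markers were higher in GFP-positive cells, and in each the 2 GFP-positive libraries lay above both GFP-negative libraries, as they did for 18.4% of all genes tested. Their median log2 fold change was 11.36, or 10.47 with the 4 genes whose GFP-negative libraries held 0 reads set at the lower bound given by 3 counts. Since the sort was made on a fluorescent protein driven by EC regulatory sequences, these values check the sort. Pecam1, an adhesion molecule of the cell border, was at 1031 and 748 against 0.221 and 0.689 TPM. Cdh5, the cadherin of endothelial junctions, was at 464 and 370 against 0.248 and 0.276 TPM, and Emcn, a sialomucin of capillaries and veins, at 1223 and 583 against 0.411 and 0.0732 TPM. Tie1, the partner receptor of TEK, was at 87.4 and 77.5 TPM and had no read in GFP-negative cells, which makes it at least 9845-fold higher when 3 counts over the group are taken as the floor.

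The 12 genes with the largest changes, among those with more than 3 counts in GFP-negative cells, were Plvap, Btnl9, Eng, Adgrl4, Cav1, Flt1, Zfp366, She, Arhgef15, Prkch, Igfbp3 and Sema7a, with log2 fold changes from 14.55 for Plvap to 11.2 for Sema7a. Several are surface receptors of ECs. Adgrl4, an adhesion G protein-coupled receptor of angiogenic vessels, was at 1969 and 1681 TPM against 0.121 and 0.16 TPM. Btnl9, a butyrophilin-like protein, was at 241 and 178 against 0.00942 and 0.00806 TPM. Igfbp3, which binds insulin-like growth factors, was at 809 and 1553 against 0.0138 and 1.2 TPM, and Zfp366, a zinc finger protein, at 99.2 and 76.9 against 0 and 0.0658 TPM. Arhgef15, a guanine nucleotide exchange factor, had the tightest estimate (94.9 and 45.0 against 0.0346 and 0.0322 TPM, log2 fold change 11.49 ± 0.62, adjusted p = 4.64e-09).

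For 119 enriched genes the GFP-negative libraries held 3 counts or fewer between them and did not overlap the GFP-positive ones. By level, the leading genes among these were Esam, Gm2399, Hba-a1, Cd300lg and Fam167b. Esam, an adhesion molecule of EC tight junctions, was at 1746 and 695 against 0 and 0.112 TPM, a ratio of 9715 with a 95% counting interval of 3324 to 47113. Cd300lg, a receptor on the surface of capillary ECs also called nepmucin, was at 549 and 365 against 0.012 and 0.0248 TPM, a ratio of 23611 (6536 to 194974). Such intervals cover counting error only. Gm2399 is a pseudogene whose reads may belong to other copies, and its call was lost without GFP-negative replicate 1 (adjusted p = 0.0608) or replicate 2 (adjusted p = 0.128).

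Among enriched genes the highest levels in GFP-positive cells belonged to Actb, Tmsb4x, Col4a1, B2m, Igfbp7, Sparc, Gm10800, Tm4sf1, Itm2b, H2-D1, Ly6a and Ly6c1. Actb, cytoplasmic actin, was at 6104 and 3863 TPM but also at 754 and 2424 TPM in GFP-negative cells (log2 fold change 1.83 ± 0.35, adjusted p = 0.00109). Tm4sf1, a tetraspanin-like protein of ECs, was at 3998 and 1105 against 33.6 and 2.82 TPM, and Igfbp7, a secreted protein of the vessel wall, at 3563 and 2099 against 23.1 and 6.86 TPM. The value of Gm10800, a predicted gene with repetitive sequence, rested on GFP-positive replicate 2, with 80.3 and 5152 against 9.56 and 180 TPM. Without that library its log2 fold change was -0.23 (adjusted p = 1).

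Promoters of EC genes are known to hold sites for ETS transcription factors, among them ERG, FLI1 and ETS1, whose core letters are GGAA. Of all 27025 promoters in the RefSeq table for GRCm38.p6 (250 bases before to 50 after the start), 8.5% held the letters ACAGGAA on either strand, 9.16% held CCGGAAG and 16.9% held either of them. Among the 13707 promoters that belong to genes tested here, which are 64.2% of those genes, the shares were 7.6%, 15.1% and 21.6%. The share in enriched genes is not compared, since only 78.2% of the genes enriched in GFP-positive cells have a promoter in that table. Of the 67 members of the lists of EC markers, diaphragm and caveolae genes, EC transcription factors and vascular receptors, 42 promoters were searched. ACAGGAA was found in 7 of them, and either word in 9, and no excess is read from these counts. Kdr, Tek, Flt1, Eng, Robo4 and Cav1 are among those without either word. Of the 7, 6 had an ATAC-seq peak within 500 bp of the GENCODE gene start in both GFP-positive libraries. Those starts can lie apart from the RefSeq promoters searched, as for Egfl7, the gene without such a peak. For the 5 of these 6 genes that were enriched in GFP-positive cells, which leaves out Pacsin2, 29 bases around each match are shown, read 5′ to 3′ on the strand of the gene, with the matching letters in capitals. TTCCTGT is ACAGGAA on the opposite strand.
Tie1, chr4:118490041-118490069, minus strand: gcttcctccctTTCCTGTctcccgtgctc
Emcn, chr3:137340894-137340922, plus strand: agaagggtctcTTCCTGTtcaaatcccat
Emcn, chr3:137341000-137341028, plus strand: aaaaaaagaagTTCCTGTaaggggctgaa
Rasip1, chr7:45627461-45627489, plus strand: cctcttgccttTTCCTGTcccccacccag
Notch4, chr17:34564113-34564141, plus strand: ccattaaaatgACAGGAActcccccattt
Calcrl, chr2:84425317-84425345, minus strand: ggggtgatgtaACAGGAAgctgtgatgtt
A match of letters is a description of the sequence and not evidence of binding. The 5 genes were chosen for being higher in GFP-positive cells, with Rasip1, which acts in the formation of the vessel lumen, at 31.4 and 48.9 against 0.162 and 0 TPM, and Calcrl, the receptor shared by adrenomedullin and calcitonin gene-related peptide, at 145 and 162 against 0.639 and 0.181 TPM.

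Proteins of the fenestral diaphragm and of caveolae, the flask-shaped pits of the EC surface, were higher in GFP-positive cells for 9 of 10 genes, beside 7.07% of all genes, with a median log2 fold change of 6.22 against 0 over all genes. Plvap (chromosome 8, 71497765 to 71511752, minus strand), the diaphragm protein itself, stood at 1160 and 1112 TPM in GFP-positive cells and at 0.0464 and 0 TPM in GFP-negative cells. The 2 GFP-positive libraries differed by little, and the log2 fold change was 14.55 ± 2.92 (SE; adjusted p = 0.0018, edgeR). Cav1, the coat protein of caveolae, was at 360 and 242 against 0.173 and 0.0278 TPM (log2 fold change 11.84 ± 0.79, adjusted p = 3.43e-08), and its partner Cav2 at 185 and 95.7 against 0.0143 and 0.389 TPM.

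The cavins shape the caveolar coat, and the EHD proteins hold its neck. Cavin2 was at 168 and 128 against 0.188 and 0.0671 TPM, whereas Cavin1 was at 88.3 and 203 against 1.92 and 2.95 TPM. Ehd4 was at 250 and 254 against 16.9 and 32.7 TPM, a log2 fold change of 4.32 ± 0.33 (adjusted p = 1.19e-07). Pacsin2, which bends the membrane at the neck, was not called (48.8 and 74.1 against 28.1 and 21.1 TPM). Dnm2, the dynamin of all cells, was higher by 1.21 ± 0.34 on the log2 scale, a call that was lost without GFP-positive replicate 2 (adjusted p = 0.13) or GFP-negative replicate 2 (adjusted p = 0.105) and with an offset for gene length (adjusted p = 0.141).

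Of 24 transcription factors known from ECs, 17 were higher in GFP-positive cells, beside 7.07% of all genes, and none was lower, with a median log2 fold change of 6.32. Erg, Fli1, Sox17 and Sox18 are also among the EC markers, so this count is in part the check of the sort again. Among the ETS factors, Ets1 was at 262 and 124 against 0 and 0.833 TPM and Elk3 at 468 and 155 against 24.5 and 13.4 TPM. Fli1 was at 154 and 35.4 against 0.00382 and 0 TPM and Erg at 27.0 and 26.8 against 0.0299 and 0 TPM. Ets2, which many cells use, was at 88.1 and 33.9 against 19.6 and 30.1 TPM and was not called.

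The SOX factors of the endothelium, which act in arterial identity and lymphatic specification, also differed between GFP-positive replicates. Sox18 was at 34.4 and 143 TPM and Sox17 at 7.18 and 29.0 TPM, both with no read in GFP-negative cells. They were at least 1411-fold and at least 387-fold higher against a floor of 3 counts over the group. Epas1, the hypoxia-inducible factor of ECs, was at 280 and 355 against 3.34 and 5.77 TPM, and Klf2, which responds to blood flow, at 271 and 139 against 1.69 and 1.75 TPM. Of the factors tied to vessels with a barrier, Foxf2 was among the 17 called higher, at 6.9 and 7.51 TPM with no read in GFP-negative cells (at least 254-fold higher), and Foxq1 was at 0 and 0.0711 TPM in GFP-positive cells. Of the 17 calls, those of Klf4 and Tcf15 were lost in at least 2 of the fits with a library left out, with adjusted p up to 0.128 and 0.167.

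Transcription factors of the neurohypophyseal and pituitary lineages were lower for 3 of 13 members and higher for 2 (median log2 fold change -2.28), beside 7.45% and 7.07% of all genes. Six3, a homeobox gene of the anterior forebrain, was at 6.66 and 0 against 136 and 170 TPM (log2 fold change -5.76 ± 1.26, adjusted p = 0.00449), and without GFP-positive replicate 1 its log2 fold change was -16.12. Sox2, a gene of progenitor cells, was at 2.26 and 0 against 16.2 and 40.8 TPM. Hes1, a target of Notch signaling, was higher in GFP-positive cells (52.8 and 124 against 0.846 and 13.5 TPM), as was Nfib (117 and 180 against 76.1 and 31.1 TPM), whose call was lost with an offset for gene length (adjusted p = 0.145).

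All 23 vascular receptors examined were higher in GFP-positive cells, beside 7.07% of all genes, with a median log2 fold change of 7.35, and all 23 stayed called when any of the 4 libraries was left out. Tek, Tie1, Kdr, Flt1, Eng and Robo4 are also among the EC markers, and Pdgfrb is among the pericyte markers. The count is therefore in part the check of the sort again. The list holds the receptors of the vascular endothelial growth factor family. Flt1 was at 1103 and 1054 against 0.108 and 0.126 TPM and Kdr, the main signaling receptor, at 555 and 536 against 1.02 and 1.84 TPM, whereas Flt4, best known from lymphatic ECs, was at 37.6 and 44.8 against 0.444 and 0.022 TPM. The co-receptor Nrp1 stood at 422 and 357 and its relative Nrp2 at 51.6 and 41.9 TPM in GFP-positive cells.

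The list also holds receptors of the bone morphogenetic protein and Notch pathways. Eng, the auxiliary receptor endoglin, was at 881 and 714 against 0.0225 and 0.0471 TPM and Acvrl1, its signaling partner, at 197 and 162 against 0.0319 and 0.0421 TPM. Notch1 was at 297 and 241 against 0.504 and 0.442 TPM and Notch4, whose expression is largely limited to ECs, at 60.4 and 104 against 0.0878 and 0 TPM. The smallest change in the list was that of Unc5b, a receptor for netrins, at 5.67 and 6.04 against 0.461 and 0.727 TPM (log2 fold change 3.38 ± 0.85, adjusted p = 0.00972).

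Ramp2, Ednrb and Lepr are given as examples from the same list that act in the sensing of peptides and hormones. Ramp2, which makes CALCRL a receptor for adrenomedullin, was at 574 and 338 against 1.66 and 0 TPM. Ednrb, the endothelin B receptor, was at 363 and 156 against 13 and 2.86 TPM (log2 fold change 4.71 ± 0.94, adjusted p = 0.00172, and 7.39 without GFP-negative replicate 1). Lepr, the receptor for leptin, was at 62.3 and 51.9 TPM against 0.00404 and 0 TPM, a ratio of 7196 with a counting interval of 1291 to 284279. Of receptors for the hormones of the neurohypophysis, Oxtr, the oxytocin receptor, was at 0 in both GFP-positive libraries. It was at 1.35 and 3.22 TPM in GFP-negative cells and was not called. Avpr1b, a vasopressin receptor of corticotrophs, was at 0.00695 and 0 against 2.0 and 9.07 TPM, and its call was lost without GFP-positive replicate 2 (adjusted p = 0.0539).

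Of the 8 hormone receptors and peptidases tested, 1 was higher in GFP-positive cells (Ece1) and 2 were lower (Avpr1b and Mme), beside 7.07% and 7.45% of all genes, and the lower count was 0 without GFP-positive replicate 2 and 1 without either GFP-negative library. Mme, the peptidase neprilysin, was at 2.22 and 0.827 against 9.84 and 12.9 TPM (log2 fold change -2.52 ± 0.7, adjusted p = 0.0187), a call lost without GFP-positive replicate 2 (adjusted p = 0.167) or either GFP-negative library (0.0585 and 0.0598). Ece1, which activates endothelin, was higher by 2.96 ± 0.34 on the log2 scale of counts, although its TPM overlapped (450 and 192 against 28.5 and 695 TPM) and the call was lost with an offset for gene length (adjusted p = 1). Lnpep, the oxytocin- and vasopressin-cleaving aminopeptidase, was at 12.2 and 16.3 against 9.79 and 17.0 TPM, Enpep at 38.8 and 68.0 against 12.7 and 90.8 TPM and Ace at 20.1 and 25.9 against 16.4 and 11.1 TPM, and these 3 were not called.

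Of 22 vascular ligands tested, 9 were higher in GFP-positive cells and 2 lower, beside 7.07% and 7.45% of all genes, with a median log2 fold change of 2.24. Pdgfb, with which ECs recruit pericytes, was at 47.2 and 117 against 0.702 and 0 TPM. Tgfb1 was at 109 and 84.9 against 1.34 and 0.32 TPM, and the chemokine Cxcl12 at 184 and 93.7 against 3.44 and 0.0767 TPM. Edn1, the precursor of endothelin, was at 16.4 and 5.71 TPM and had no read in GFP-negative cells, at least 316-fold higher against the floor. Vegfc was at 42.9 and 42.0 against 0.583 and 4.77 TPM. The members called higher without exception when a library was left out were Vegfc, Pdgfb, Edn1, Cxcl12, Tgfb1, Dll4 and Jag1, whereas Angpt2 and Bmp6 each lost the call in at least 1 such fit, with adjusted p up to 0.236 and 0.189.

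The 2 ligands lower in GFP-positive cells, where 7.45% of all genes were lower, were Sema3a and Angpt1. Sema3a, a secreted semaphorin that binds neuropilin 1, was at 22.9 and 109 TPM in GFP-negative and at 0.0158 and 0 TPM in GFP-positive cells, a ratio of 1009 (345 to 4896) and a log2 fold change of -10.06 ± 1.45 (SE; adjusted p = 0.000114, edgeR). Angpt1, the activating ligand of TEK, was at 0.369 and 4.68 against 0.0225 and 0 TPM. Vegfa, which keeps capillaries fenestrated, was not called, with 7.99 and 20.7 TPM in GFP-negative and 10.3 and 8.74 TPM in GFP-positive cells.

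**Figure D3:**
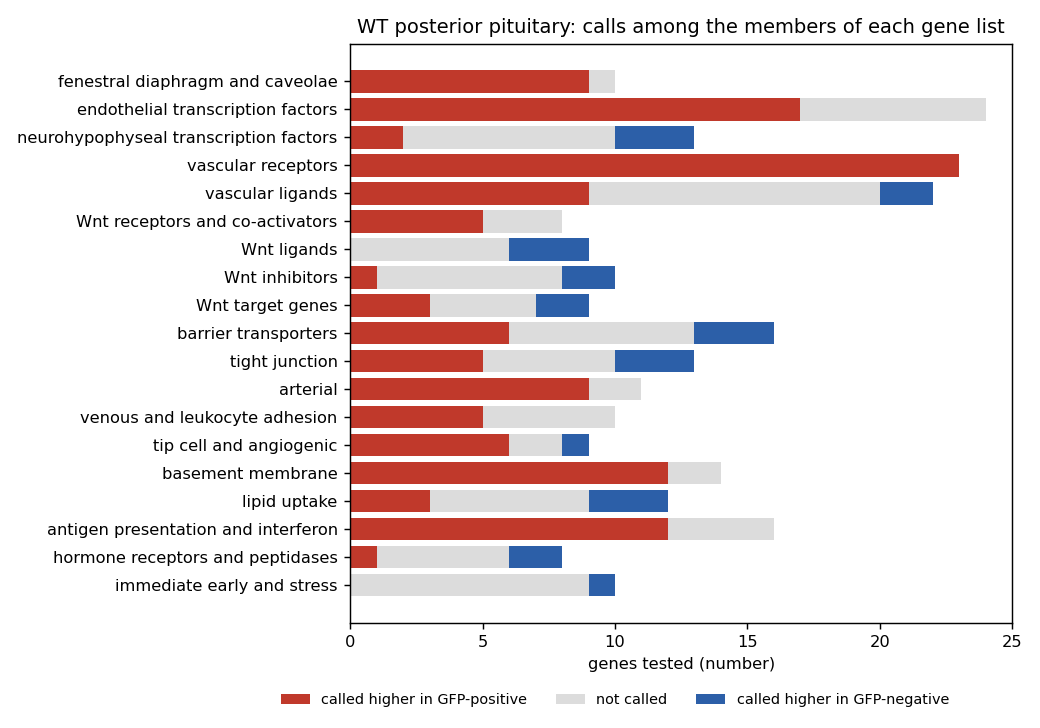
Number of genes tested in each of 19 gene lists, split into those called higher in GFP-positive cells (red), not called (grey) and called higher in GFP-negative cells (blue). The vascular receptors are red throughout (23 of 23), the Wnt ligands have 3 of 9 blue and none red, and barrier transporters and tight junction genes hold both colours.

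Components of the Wnt/beta-catenin pathway were examined by role. On the receiving side, 5 of 8 receptors and co-activators were higher in GFP-positive cells, beside 7.07% of all genes, and none was lower (median log2 fold change 2.94). Fzd4, the frizzled receptor that brain ECs use, was at 91.4 and 95.2 against 1.24 and 0.0453 TPM, its partner Tspan12 at 459 and 218 against 10.6 and 4.57 TPM, and the co-receptor Lrp5 at 64.2 and 79.8 against 3.91 and 2.87 TPM. Ctnnb1, which codes for beta-catenin and serves all cells, was at 774 and 833 against 160 and 290 TPM (log2 fold change 1.93 ± 0.36, adjusted p = 0.00101). Adgra2 and Reck, which together recognise WNT7, were at 6.52 and 2.83 and at 6.92 and 5.75 TPM in GFP-positive cells. The call for Adgra2 was lost without GFP-negative replicate 1 (adjusted p = 0.0518), and Reck was not called.

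On the sending side, 3 of 9 ligands were lower in GFP-positive cells, beside 7.45% of all genes, and none was higher (median log2 fold change -3.61). Wnt7a, Wnt7b and Ndp, the ligands known to act on barrier vessels through these receptors, were listed at 0 in all 4 libraries. Wnt5b was at 47.9 and 28.7 TPM in GFP-negative cells and 0.12 and 0 TPM in GFP-positive cells (log2 fold change -9.51 ± 1.54, adjusted p = 0.000313), and Wnt5a, its close relative, at 1.88 and 6.05 against 0.00722 and 0.00519 TPM. Both are known mainly for signaling that does not go through beta-catenin. The call for Wnt3 (0.0043 and 1.79 against 0 and 0 TPM) rested on GFP-negative replicate 2 and was lost without it (adjusted p = 0.636), as it was without either GFP-positive library (adjusted p = 0.14 and 0.12) and with the length offset (0.141).

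Genes that beta-catenin induces in many cells were higher for 3 of 9 members and lower for 2 in GFP-positive cells, beside 7.07% and 7.45% of all genes. Axin2, the feedback inhibitor most often read as a measure of the pathway, was at 0.356 and 0.405 TPM in GFP-positive and 6.75 and 7.82 TPM in GFP-negative cells (log2 fold change -3.73 ± 1.01, adjusted p = 0.0158), and the call was lost without GFP-positive replicate 2 (adjusted p = 0.0821). Apcdd1, an inhibitor found in brain ECs, was at 11.8 and 19.0 against 0 and 0.0709 TPM (log2 fold change 8.71 ± 1.17, adjusted p = 4.25e-05, and 13.25 without GFP-negative replicate 2, which held all of its GFP-negative reads). Lef1 was at 0.258 and 6.04 against 0 and 0.0254 TPM, and its call was lost without GFP-positive replicate 2 (adjusted p = 0.0707) or GFP-negative replicate 1 (adjusted p = 0.0728). Nkd1 and Notum were under 3 TPM in all 4 libraries and lost their calls without GFP-positive replicate 1 (adjusted p = 0.75) and GFP-negative replicate 1 (adjusted p = 1) respectively. Among 10 secreted inhibitors tested, Wif1, Sfrp2, Sfrp4 and Frzb were listed at 0 throughout, and the 3 that were called, Dkk2, Sfrp1 and Sfrp5, were under 5 TPM and lost their calls in at least 2 of the fits with a library left out, with adjusted p up to 1, 0.149 and 0.186.

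Of 16 transporters that mark the blood-brain barrier, 6 were higher in GFP-positive cells and 3 lower, beside 7.07% and 7.45% of all genes. Slc2a1, the glucose transporter of barrier vessels, was lower in ECs than in the GFP-negative cells, at 21.1 and 24.8 against 43.9 and 78.8 TPM (log2 fold change -1.83 ± 0.37, adjusted p = 0.00184). Mfsd2a, the carrier of docosahexaenoic acid into brain, was at 0 and 0.0335 against 4.46 and 3.47 TPM. Tfrc, the transferrin receptor, was at 10.6 and 1.72 against 16 and 18.9 TPM, and its call was lost with the length offset (adjusted p = 0.105).

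Efflux pumps and some carriers were nevertheless higher in GFP-positive cells. Abcg2 was at 347 and 275 against 4.33 and 0.724 TPM, and Abcb1a, which codes for P-glycoprotein, at 62.9 and 30.7 against 0.00891 and 0.103 TPM (log2 fold change 9.31 ± 1.03, adjusted p = 5.84e-06). Slco1a4, an organic anion carrier, was at 21.4 and 42.6 against 0.0339 and 0.219 TPM. Slc3a2, the heavy chain of amino acid carriers, reached 1450 and 1717 TPM against 124 and 460 TPM, while its barrier partner Slc7a5 was at 7.64 and 0.0414 against 0.4 and 3.43 TPM and was not called. Slc19a3 was listed at 0 in GFP-positive cells, and Slc22a8 was at 0.094 and 0 TPM.

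Of 13 tight junction genes 5 were higher in GFP-positive cells and 3 lower, beside 7.07% and 7.45% of all genes. Cldn5, the claudin of barrier vessels, was at 37.2 and 13.2 TPM in GFP-positive and 0 and 0.171 TPM in GFP-negative cells, a log2 fold change of 8.43 ± 2.37 (adjusted p = 0.0203) whose call was lost without GFP-negative replicate 1 (adjusted p = 0.0721) and which was 12.65 without GFP-negative replicate 2. Tjp1, the scaffold ZO-1, was at 82.8 and 256 against 20.3 and 9.12 TPM, and Cgnl1, paracingulin, at 24.6 and 36.0 against 2.3 and 0.876 TPM. Of the lower genes, which serve epithelial junctions too, Ocln was at 2.54 and 0.102 against 8.21 and 40.3 TPM (log2 fold change -3.0 ± 0.73, adjusted p = 0.00794, and -6.5 without GFP-positive replicate 1) and Lsr, the angulin of tricellular contacts, at 0.184 and 0 against 6.95 and 10.1 TPM. The call for Jam3 was lost without GFP-negative replicate 2 (adjusted p = 0.0726), and that for Cgn without GFP-positive replicate 2 (0.154) or GFP-negative replicate 1 (0.107).

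Genes of arterial, venous and growing vessels were present together. Of 11 arterial genes 9 were higher in GFP-positive cells, of 10 venous and leukocyte adhesion genes 5, and of 9 tip cell and angiogenic genes 6, with 1 lower, where 7.07% of all genes were higher and 7.45% lower. The arterial connexin Gja4 was at 28.9 and 17.1 TPM with no read in GFP-negative cells (at least 760-fold higher), while Gja5 was at 3.56 and 3.71 TPM. Sema3g, a semaphorin of arteries, was at 34.8 and 32.5 against 0 and 0.00744 TPM, and Efnb2, the arterial ephrin, at 78.1 and 38.9 against 2.39 and 2.08 TPM. Its venous receptor Ephb4 stood at 53.8 and 64.8 against 0.854 and 0.119 TPM. The call for the arterial gene Mgp was lost without GFP-negative replicate 1 (adjusted p = 0.0501), and those for Angpt2 and Kcne3 in the tip cell list were lost without GFP-positive replicate 1 (0.236 and 0.158) or GFP-negative replicate 2 (0.114 and 0.149).

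Among the adhesion molecules of inflamed venules, Sele was at 0.573 and 0.256 TPM, Selp at 0.617 and 4.08 TPM and Ackr1 at 0 and 0.296 TPM in GFP-positive cells, and none of the 3 was called. Vcam1 was at 4.93 and 7.1 against 0.338 and 5.74 TPM and was not called either. Icam2, which resting ECs carry, was at 196 and 80.0 TPM with no read in GFP-negative cells, and Icam1 at 58.1 and 54.8 against 0 and 2.15 TPM. Among genes of sprouting vessels, Cd34 was at 552 and 316 against 1.55 and 0.301 TPM and Mcam at 102 and 137 against 0.393 and 0.632 TPM. Esm1, a secreted marker of tip cells, was at 48.7 and 27.2 TPM in GFP-positive but 104 and 195 TPM in GFP-negative cells and was not called. Trp53i11, the lower member of that list, was at 146 and 54.5 against 208 and 331 TPM, and its call was lost without GFP-positive replicate 2 (adjusted p = 0.171) or GFP-negative replicate 1 (adjusted p = 0.0749) and with the length offset (adjusted p = 0.121).

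Of 14 basement membrane genes, which code for the sheet of matrix around the capillary, 12 were higher in GFP-positive cells, beside 7.07% of all genes, and none was lower. Col4a1 and Col4a2, the chains of type IV collagen, were at 1691 and 4832 and at 683 and 1367 TPM in GFP-positive cells, against 18.7 and 58.1 and 6.41 and 32.2 TPM. Sparc, a secreted protein that binds collagen, was at 3205 and 2180 against 14.8 and 43.3 TPM (log2 fold change 6.47 ± 0.4, adjusted p = 1.21e-08), and Hspg2, perlecan, at 233 and 186 against 1.15 and 0.325 TPM. Laminin chains followed, with Lama4 at 40.2 and 56.9 against 7.03 and 2.19 TPM and Lamc1 at 146 and 306 against 44.4 and 51.9 TPM. The call for Lamb1 was lost without GFP-positive replicate 2 (adjusted p = 0.245) and without either GFP-negative library (0.0835 and 0.123), and Lamb2 was called although its TPM overlapped (150 and 264 against 3.54 and 283). Col15a1, a collagen of the capillary wall, was at 266 and 440 against 22.3 and 39.2 TPM and was not called.

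Of 12 genes of lipid uptake 3 were higher and 3 lower, beside 7.07% and 7.45% of all genes. Gpihbp1, which holds lipoprotein lipase on the capillary wall, was at 417 and 280 against 0 and 0.0857 TPM, a ratio of 13584 (2438 to 536570), and Fabp4, a fatty acid binding protein of capillaries, at 229 and 262 against 0 and 0.0598 TPM. Scarb1, the receptor for high-density lipoprotein, was at 281 and 226 against 4.68 and 0.026 TPM. The lipase itself, Lpl, was on the GFP-negative side, at 5.65 and 4.42 against 37.7 and 45.7 TPM (log2 fold change -3.6 ± 0.59, adjusted p = 0.000281). Vldlr was lower as well (0.194 and 0.0097 against 1.45 and 17.4 TPM).

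Genes of antigen presentation and interferon response were higher for 12 of 16 members, beside 7.07% of all genes, and lower for none. B2m, the light chain of class I molecules, was at 4241 and 1726 against 72.6 and 49.9 TPM (log2 fold change 5.21 ± 0.51, adjusted p = 1.55e-06), and H2-D1 at 2713 and 1840 against 255 and 405 TPM. The surface proteins Ly6a and Ly6c1 were at 3398 and 971 and at 2750 and 1042 TPM in GFP-positive cells, and at or below 17.2 TPM in GFP-negative cells. Members of the H2 and Ly6 families share sequence, so that reads may be split between copies. Cd74, the invariant chain of class II molecules, was at 121 and 54.0 against 12.5 and 15 TPM and was not called, nor were H2-Aa and H2-Ab1. The calls for Psmb9 and Ifitm2 were lost without GFP-negative replicate 1 (adjusted p = 0.0641) and replicate 2 (adjusted p = 0.0926) respectively.

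On the GFP-negative side, the 12 largest changes were those of Adam22, Srrm4, Sept5, Neurl1a, Wnt5b, Pcdh15, Six3os1, Gria2, Baiap3, Snap91, Cidea and Erich3, with log2 fold changes from -10.7 to -8.71. Adam22, a receptor for the synaptic protein LGI1, was at 20.4 and 29.4 against 0.0336 and 0.0322 TPM (log2 fold change -10.7 ± 1.03, adjusted p = 1.41e-06). Baiap3, which acts in the release of dense-core vesicles, was at 65.2 and 108 against 0.107 and 0 TPM, and Gria2, a subunit of the AMPA glutamate receptor, at 26.1 and 62.4 against 0.111 and 0.0528 TPM. Srrm4, a splicing regulator of neurons, was at 15.2 and 28.4 against 0 and 0.0845 TPM. The call for Cidea was lost without either GFP-positive library (adjusted p = 0.0721 and 0.156).

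The most abundant enriched genes of GFP-negative cells were Pomc, mt-Cytb, mt-Nd4l, mt-Nd5, Gnas, Gm28439, Gm28661, Cpe, Tcf25, Nr4a2, Scg2 and Snrnp70. Besides Pomc, those of the secretory pathway were Cpe, the carboxypeptidase that trims prohormones (1502 and 1468 against 80.1 and 28.5 TPM, log2 fold change -5.47 ± 0.41, adjusted p = 9.96e-08), and Scg2, a granin of secretory granules (960 and 1190 against 66.7 and 7.46 TPM). Nr4a2, an orphan nuclear receptor, was at 723 and 1521 against 17.2 and 2.98 TPM. Gm28439 and Gm28661 are pseudogenes of mitochondrial sequence and their reads cannot be told apart from those of the mitochondrion. Of the mitochondrial genes, mt-Cytb and mt-Nd5 lost their calls without GFP-negative replicate 1 (adjusted p = 0.525 and 0.349) and without GFP-positive replicate 2 (0.129 and 0.0613), as did Gm28439 (0.216 and 0.131).
Tcf25 stood apart in that its TPM differed far more (1038 and 1244 against 55.9 and 24.4) than its counts (log2 fold change -1.35 ± 0.28), and it lost its call without GFP-positive replicate 2 (adjusted p = 0.101) or GFP-negative replicate 2 (adjusted p = 0.0618). Snrnp70 overlapped in TPM (636 and 1281 against 719 and 888) and lost its call without any 1 of the 4 libraries, with adjusted p of 0.0729 to 0.345.

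For 63 genes enriched in GFP-negative cells the GFP-positive libraries held 3 counts or fewer between them without overlap, and Gm14491, Gm4322, Arnt2, Mia and Gm12346 led these by level. Arnt2, the partner of SIM1 in neuroendocrine cells, was at 14.1 and 313 against 0 and 0.078 TPM, a ratio of 1450 (260 to 57297). Mia, a small secreted protein, was at 188 and 41.0 TPM with no read in GFP-positive cells. The rest are predicted genes or pseudogenes and are uncertain, and Gm14491 lost its call without GFP-positive replicate 1 (adjusted p = 0.0559). Dissociation can induce immediate early and stress genes. Of 10 such genes none was higher in GFP-positive cells and 1 was lower, beside 7.07% and 7.45% of all genes. The lower gene was Fosb (60.4 and 15.5 against 171 and 224 TPM). Its call was lost without GFP-positive replicate 2 or GFP-negative replicate 1. Fos was at 610 and 238 against 1006 and 657 TPM, and Hspa1b at 1561 and 223 against 77.7 and 173 TPM.

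To find where posterior pituitary ECs differ from other ECs, the enrichment (GFP-positive over GFP-negative) was compared between tissues. Of the genes enriched in posterior pituitary ECs, 697 were also enriched in anterior pituitary ECs, which is 60.6% of the posterior and 75.8% of the anterior list, and 467 in cerebellar ECs, which is 40.6% and 58.7%. Of all 21343 genes tested, 919 were enriched in anterior pituitary ECs and 795 in cerebellar ECs. Every list comes from a sort on the same reporter, so the overlap is a description only. The difference of enrichment over the anterior pituitary was called for 179 genes (0.839% of those tested), with 119 higher (0.558%) and 60 lower (0.281%). These counts depend on the fit: they were 649 and 468 with DESeq2, 568 and 436 with no filter on low counts, 39 and 21 with the 12 WT libraries, and 144 to 352 and 70 to 311 with a library left out. Over the cerebellum it was called for 795 genes (3.72%), with 553 higher (2.59%) and 242 lower (1.13%), which became 1277 and 796 with DESeq2, 1095 and 573 with no filter and 323 and 140 with the 12 WT libraries. The 1150 enriched genes were chosen by the posterior pituitary enrichment, which is part of both differences, so counts among them are a description only. Among these 1150, 60 had a higher difference over the anterior pituitary, 307 over the cerebellum and 42 over both. Left-out libraries moved the first of these from 60 to between 72 and 213, the highest being without GFP-negative replicate 1.

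The GFP-negative libraries enter these differences, and they were not equally free of ECs. The 20 EC markers summed to 8.73 and 3.66 TPM in posterior pituitary GFP-negative cells, to 34.7 and 38.3 TPM in those of the anterior pituitary and to 24.8 and 34.6 TPM in those of the cerebellum. The part of this in the differences was not tested, so levels in the GFP-positive cells are given beside the differences. The GFP-positive libraries also differed in markers of other cells. Pericyte markers summed to 154 and 82 TPM in posterior pituitary, 190 and 227 TPM in anterior pituitary and 1044 and 882 TPM in cerebellum. Anterior lobe endocrine markers summed to 46.1 and 3.33, 6554 and 4269, and 11.1 and 4.53 TPM in the same order. Erythrocyte markers summed to 5289 and 1548, 2210 and 1350, and 65218 and 7177 TPM. Of the 47 differences flagged for a closer look below, 16 were not called when only the 12 WT libraries were fitted and 10 with an offset for gene length. Bloc1s2, Foxf2, Cavin2, Exoc3l2, Rgs5, Sema4c and Six6 over the anterior pituitary were not called in either fit. Esam had a difference of 7.55 ± 0.85 over the anterior pituitary (adjusted p = 0.000216), yet its GFP-positive levels were 1746 and 695 TPM in posterior and 973 and 2225 TPM in anterior pituitary ECs, which overlap. Fli1 had a difference of 8.82 ± 1.11, again with overlapping levels of 154 and 35.4 TPM and of 16.1 and 36.2 TPM. Cavin2 had a difference of 3.34 ± 0.71 (168 and 128 against 102 and 117 TPM), which lost its call without GFP-negative replicate 2 (adjusted p = 0.0606).

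Other differences from the anterior pituitary were also large in the levels of the ECs. Cxcl12 was at 184 and 93.7 TPM in posterior and 0.389 and 2.83 TPM in anterior pituitary ECs, a difference of enrichment of 10.69 ± 1.26 on the log2 scale (adjusted p = 0.00038), and cerebellar ECs held 490 and 346 TPM. Car4, a carbonic anhydrase on the capillary surface, was at 256 and 86.4 TPM in posterior, 0 and 0.179 TPM in anterior pituitary and 1482 and 1147 TPM in cerebellar ECs. Foxf2, a transcription factor of brain vessels, was at 6.9 and 7.51 TPM in posterior, 0 in both anterior pituitary and 40.9 and 37.2 TPM in cerebellar ECs. These 3 genes were thus detected in posterior pituitary and cerebellar ECs at levels above those of anterior pituitary ECs.

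The remaining genes with the largest differences over the anterior pituitary were Bloc1s2, Npr3, Hba-a1, Clic5 and Fbln5. With only the 12 WT libraries fitted, the differences of Bloc1s2, Hba-a1 and Clic5 were not called, and with an offset for gene length those of Bloc1s2 and Npr3. Npr3, the clearance receptor for natriuretic peptides, was at 21.5 and 18.6 TPM in posterior, 3.48 and 0.243 TPM in anterior pituitary and 2.0 and 0.818 TPM in cerebellar ECs. Clic5, a protein that links membrane to actin, was at 52.4 and 61.9 TPM against 17.3 and 16.8 TPM in the anterior pituitary, and Fbln5, an organiser of elastic fibres, at 40.5 and 44.7 against 14.2 and 7.09 TPM. Hba-a1 was at 769 and 304 TPM in posterior, 157 and 171 TPM in anterior pituitary and 7449 and 1081 TPM in cerebellar ECs, and its difference goes with 0 reads in posterior pituitary GFP-negative cells. Bloc1s2, of lysosome-related organelles, was at 12.9 and 12.3 TPM in posterior and 0 in both anterior pituitary EC libraries, and lost both its calls without GFP-negative replicate 1 (adjusted p = 0.0794 for the difference) or replicate 2 (adjusted p = 0.1).

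In the opposite direction, Hspb8, Sema3d, Chn2, L3mbtl3, Trp53i11 and Sema4c were enriched in anterior pituitary ECs with a lower difference in the posterior pituitary. With only the 12 WT libraries fitted, the differences of Hspb8, Sema3d, L3mbtl3 and Sema4c were not called. Chn2, an activator of Rac GTPase, was at 19.8 and 10.9 TPM in posterior and 41.2 and 42.2 TPM in anterior pituitary ECs, but at 37.3 and 120 TPM in posterior pituitary GFP-negative cells and 1.46 and 0.533 TPM in anterior ones. Sema3d was at 14.0 and 3.15 against 36.2 and 32.8 TPM in ECs, and its difference was lost without GFP-negative replicate 1 (adjusted p = 0.329). Hspb8, a small heat shock protein, was at 12.3 and 10.1 against 17 and 29.9 TPM in ECs, with 2.76 and 19.1 TPM in posterior pituitary GFP-negative cells and 0 in both anterior ones. L3mbtl3 was at 8.35 and 3.84 against 11.9 and 15.7 TPM and Trp53i11 at 146 and 54.5 against 262 and 403 TPM in ECs. Sema4c overlapped in ECs, at 42.5 and 14.0 against 22.3 and 17.4 TPM, and its difference was lost without GFP-negative replicate 2 (adjusted p = 0.0791). Sema3a and Six6 also had lower differences, of -11.31 ± 1.7 and -5.74 ± 1.12, with GFP-positive levels of 0.0158 and 0 TPM and of 0.0144 and 0 TPM in the posterior and 6.4 and 4.37 TPM and 0.763 and 0.855 TPM in the anterior pituitary.

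Against cerebellar ECs, which form the blood-brain barrier, 6 of the 10 genes of the diaphragm and caveolae had a higher difference and none a lower one, where 2.59% of all genes were higher. Plvap was at 1160 and 1112 TPM in posterior pituitary ECs, 845 and 1028 TPM in anterior pituitary ECs and 0 and 10.7 TPM in cerebellar ECs, and its difference over the cerebellum was 12.12 ± 3.09 (adjusted p = 0.0314). That call was lost without GFP-negative replicate 2 (adjusted p = 0.065) and when only the 12 WT libraries were fitted, as were those of Axin2 and Aqp1 in that fit. Over the anterior pituitary the difference of Plvap was not called (5.59 ± 2.85, adjusted p = 0.488). Cav1 was at 360 and 242 TPM against 154 and 181 TPM in cerebellar ECs, a difference of enrichment of 6.82 ± 0.81 (adjusted p = 6.05e-05). Cavin2 was at 168 and 128 against 72.0 and 45.6 TPM in cerebellar ECs, a difference of 5.14 ± 0.72. This came with 0.188 and 0.0671 TPM in posterior pituitary and 1.25 and 2.18 TPM in cerebellar GFP-negative cells. For Cav1 and Cavin2 the levels in ECs were thus much closer than the differences of enrichment.

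Of 16 barrier transporters 7 had a lower difference and none a higher one, where 1.13% of all genes were lower. Of 13 tight junction genes 2 were lower (Ocln and Lsr) and 2 higher (Jam3 and Esam), and of 9 Wnt target genes 2 were lower (Axin2 and Notum) and none higher. Slc2a1 was at 21.1 and 24.8 TPM in posterior pituitary ECs and 1579 and 1625 TPM in cerebellar ECs (difference -6.57 ± 0.55, adjusted p = 2.52e-06). Mfsd2a was at 0 and 0.0335 against 164 and 364 TPM (difference -12.24 ± 1.45), Ocln at 2.54 and 0.102 against 206 and 223 TPM (difference -6.86 ± 1.05, and -10.44 without GFP-positive replicate 1) and Tfrc at 10.6 and 1.72 against 148 and 127 TPM (difference -5.98 ± 0.88). Axin2 was at 0.356 and 0.405 against 30.2 and 41.5 TPM, with a difference of -5.67 ± 1.36 (adjusted p = 0.0218). In ECs of the anterior pituitary Slc2a1 was at 10.8 and 16.7 TPM and Mfsd2a at 0 and 0.0176 TPM.

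**Figure D4:**
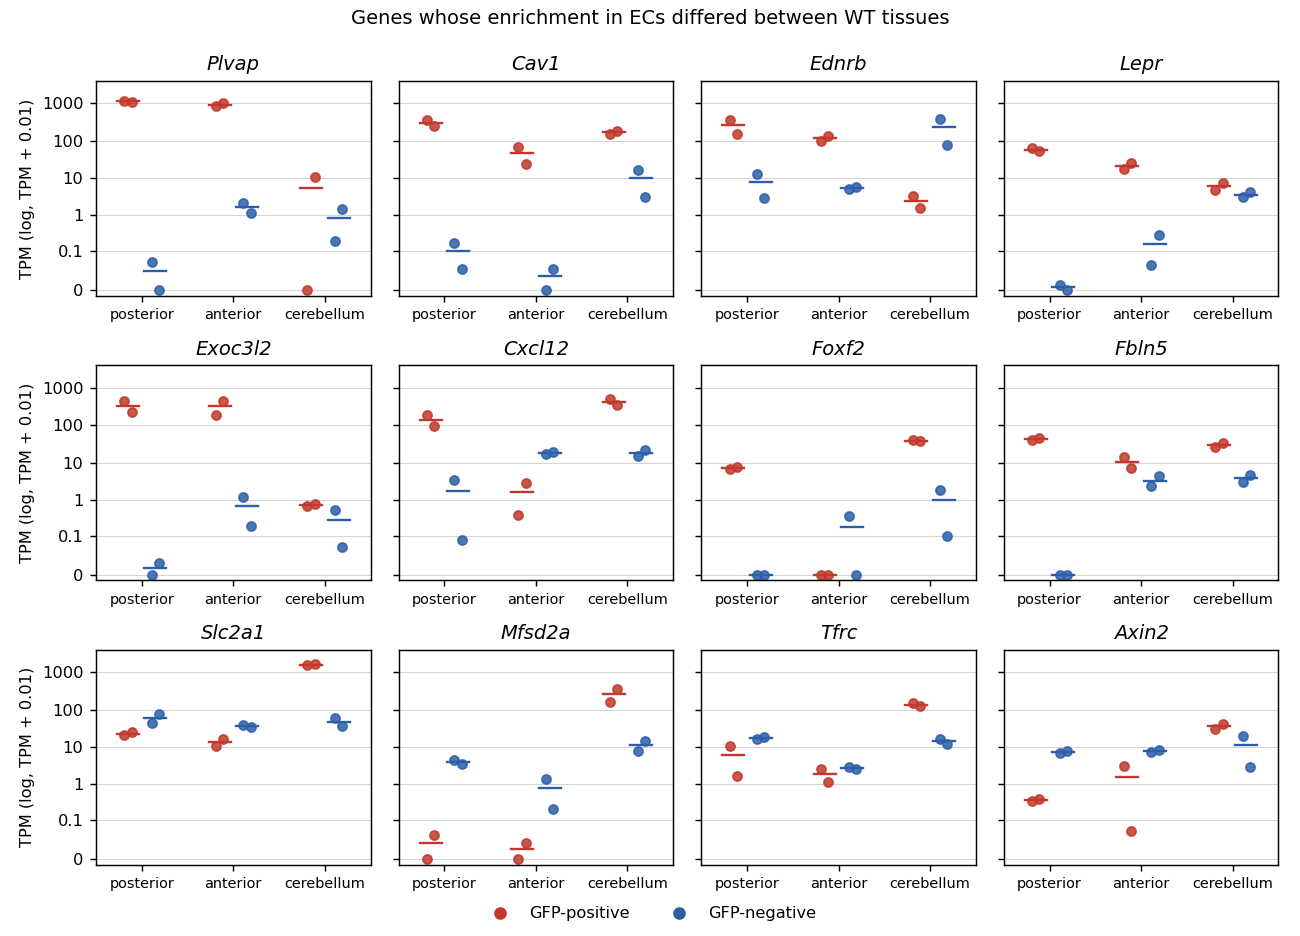
Level (TPM, log scale with 0.01 added) of 12 genes in GFP-positive (red) and GFP-negative (blue) cells of WT posterior pituitary, anterior pituitary and cerebellum, 2 libraries each, with bars at the mean of 2. Plvap is at or above 845 TPM in ECs of both pituitary lobes and at most 10.7 TPM in cerebellar ECs, Slc2a1 is at 1579 and 1625 TPM in cerebellar ECs and far lower elsewhere, and Cxcl12 and Foxf2 are low in anterior pituitary ECs.

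Of the 23 vascular receptors, 9 had a higher difference over the cerebellum and none a lower one, where 2.59% of all genes were higher. Ednrb was at 363 and 156 TPM in posterior pituitary ECs and 3.3 and 1.54 TPM in cerebellar ECs, whereas cerebellar GFP-negative cells, which include glia known to express it, held 389 and 77.3 TPM. Lepr was at 62.3 and 51.9 TPM against 4.96 and 7.44 TPM in cerebellar ECs (difference 11.67 ± 1.81, adjusted p = 0.000762) and 17.3 and 25.6 TPM in anterior pituitary ECs. S1pr1, the receptor for sphingosine 1-phosphate, was at 101 and 58.0 against 53.3 and 41.7 TPM in cerebellar ECs, and its difference of 7.65 ± 0.8 came with 135 and 44.4 TPM in cerebellar GFP-negative cells. The same holds for Sparc, whose levels were 3205 and 2180 against 2147 and 2567 TPM in ECs and whose difference of 4.64 ± 0.46 came with 633 and 363 TPM in cerebellar GFP-negative cells.

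By the naming rule, which was chosen with earlier results of these data known, the largest differences over the cerebellum were those of Chrm2, Cyp26b1, Irx3, Ppp1r16b, Ntf3 and Aqp1. Cyp26b1, which breaks down retinoic acid, was at 150 and 115 TPM in posterior, 273 and 321 TPM in anterior pituitary and 1.12 and 0.417 TPM in cerebellar ECs. Irx3, a homeobox gene, was at 39.1 and 36.8, 22.6 and 29.3, and 1.24 and 0.25 TPM in the same order. Chrm2, a muscarinic receptor, was at 21 and 10.4 TPM in posterior pituitary ECs and at most 0.404 TPM in ECs of the anterior pituitary and cerebellum, and the water channel Aqp1 was at 21.1 and 23.2 TPM against 0.181 and 1.11 and 0 and 0.106 TPM. Aqp1 lost its enrichment call, though not its difference, without GFP-negative replicate 1 (adjusted p = 0.0719). Ntf3, a neurotrophin, was at 112 and 22.3 TPM in posterior, 64.7 and 35.1 TPM in anterior pituitary and 0 and 0.208 TPM in cerebellar ECs. Ppp1r16b was closer between ECs, at 15.5 and 22.3 TPM in posterior pituitary and 10.2 and 9.04 TPM in cerebellar ones, and its difference goes with 0 reads in posterior pituitary and 3.7 and 10.2 TPM in cerebellar GFP-negative cells. On the side of the cerebellum were Ddc, Lsr, Mfsd2a, Lcn2, Ccdc141 and Rab11fip1, of which Ddc, the aromatic amino acid decarboxylase, was at 0 in posterior pituitary and at 193 and 133 TPM in cerebellar ECs. Lsr, a protein of tricellular junctions, was at 0.184 and 0 against 109 and 68.4 TPM in the same order, Lcn2 at 11.4 and 0 against 15.6 and 97 TPM, Ccdc141 at 3.2 and 0.0189 against 218 and 189 TPM and Rab11fip1 at 0.812 and 0 against 32 and 24.9 TPM.

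Of the 42 genes with higher differences over both tissues, 2 are given for their levels in ECs, chosen after their values were seen. Plscr2, a phospholipid scramblase, was at 562 and 240 TPM in posterior, 71.1 and 79.8 TPM in anterior pituitary and 30.0 and 14.4 TPM in cerebellar ECs, with differences of 10.18 and 13.81. That over the anterior pituitary was not called with an offset for gene length. Exoc3l2, a relative of exocyst subunits, was at 445 and 222 TPM in posterior, 192 and 458 TPM in anterior pituitary and 0.664 and 0.779 TPM in cerebellar ECs, and its difference over the anterior pituitary of 7.45 was lost without GFP-negative replicate 1 (adjusted p = 0.0715).

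Open chromatin in posterior pituitary ECs was measured in other libraries than the levels. The 2 ATAC-seq libraries held 26402 and 25684 peaks that passed a fold of 2 over background together with a -log10 q of 2. A gene was given an open start where peaks of both libraries overlapped the 500 bp on either side of its annotated start. Open starts were found at 51.5% of all genes tested, at 77.7% of the 1150 genes enriched in GFP-positive cells and at 53.8% of the 781 enriched in GFP-negative cells. Genes that were not called but reached 10 TPM in both GFP-positive libraries had the highest share, 84.2% of 3747. These shares are descriptions with no test.

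**Figure D5:**
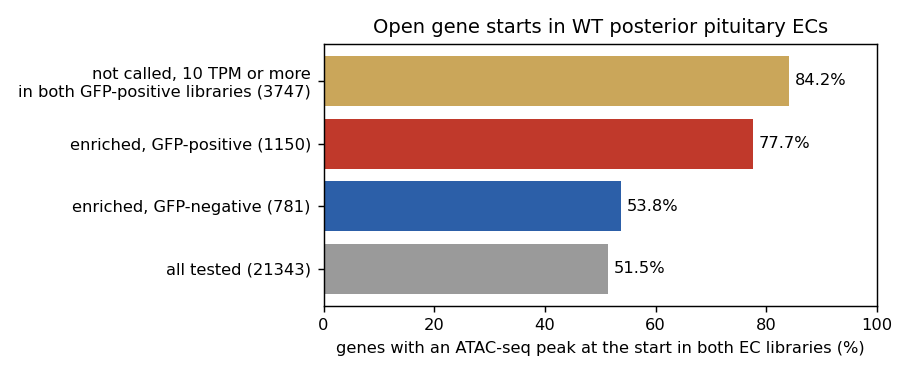
Share of genes (%) with an ATAC-seq peak within 500 bp of the annotated start in both WT posterior pituitary EC libraries, for 4 sets of genes with the number of genes in parentheses. The share is 84.2% for genes expressed but not called, 77.7% for genes enriched in GFP-positive cells, 53.8% for genes enriched in GFP-negative cells and 51.5% for all genes tested.

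Open starts were also counted by list, beside 51.5% of all genes tested and 84.2% of the genes expressed but not called. All 10 fenestral diaphragm and caveolae genes had an open start, as did 19 of 23 vascular receptors, 10 of 14 basement membrane genes and 13 of 20 EC markers, and 0 of 6 melanotroph markers and 1 of 10 pituicyte markers. These counts were not tested. At Plvap the highest peak had a fold enrichment of 3.92 and 4.38 over background, at Cav1 6.02 and 7.1, at Cavin2 9.68 and 11.4, and at Tie1 10.5 and 9.84. High expression did not require a peak in this window: Pecam1, Egfl7, Fli1 and Erg had none in either library within 500 bp of the annotated start. The window covers only the GENCODE gene start, and other starts of a gene were not examined. For Egfl7 that start is 26580014 on chromosome 2, and the RefSeq promoter searched above (26580833 to 26581132) lies outside the window. A peak did not require high expression either, since Slc2a1 and Axin2 both had an open start, with fold enrichments of 8.11 and 7.16 and of 8.25 and 9.33, at 21.1 and 24.8 TPM and at 0.356 and 0.405 TPM.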

How the data were processed

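RNA-seq was analysed from the transcript tables that the authors deposited for each library, made with Salmon 0.10.2 on Ensembl release 92 transcripts of mm10 from amplified cDNA read for 75 cycles from a single end. The expected counts that the authors deposited are estimated counts per transcript, not normalized, and the deposited TPM are scaled for length and depth by the authors. Both were summed per gene with GENCODE M21, which matched 130338 of 130740 transcripts (the unmatched held 0.127 to 0.385% of reads). Amplified reads without molecular identifiers are not independent molecules, so intervals and floors cover counting error only.

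Rounded count sums of the 24 sorted libraries, with 12157485 to 37529274 counts each, were fitted in edgeR 4.0.16 (R 4.3.3; TMM, filterByExpr, 1 coefficient for each of 12 groups, quasi-likelihood test, Benjamini-Hochberg). The 12 libraries of Tie2-GFP; Pdgfb-CreER; Ctnnb1 flex3/+ mice given 4-hydroxytamoxifen entered for the shared spread, the scaling and the filter, among them 1 whose labels disagree on its tissue. The SE is the log2 fold change divided by the square root of F. In data simulated for this comparison over 19870 genes, 14% of genes changed 4-fold, 34% changed 8-fold and 40% changed 16-fold were called, 0% changed 2-fold, and 1 unchanged gene was.

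Replicates were separate pools of mice. Named were the 12 largest changes (libraries not overlapping, over 3 counts in the lower group), 5 genes at or under 3 counts, the 12 highest TPM per direction, the 6 largest differences between tissues per direction, and examples from lists. The members, lists and rules were chosen with earlier results of these data known.

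ATAC-seq peaks were called per library by the authors with MACS2 (alignment with Bowtie2 2.3.2), and their deposited values are a fold enrichment (ratio) and a -log10 q. Of 26918 and 26385 deposited peaks, those over 2 on both were kept. Promoter sequence came from RefSeq for GRCm38.p6. Kallisto, which the labels also name, and other series members were not used here. The alternatives were DESeq2 1.42.0, RLE scaling, no filter, a replicate block, fewer libraries, a length offset, each library left out, and other peak and TPM thresholds. Tables were handled in Python 3.11.15 (pandas 2.3.3, numpy 2.4.6, scipy 1.17.1), and plots were drawn with matplotlib 3.10.9. Some members of the lists are not reported here by name.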

Additional observations from a re-analysis of the deposited data

Results flagged for a closer look

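The enrichment in posterior pituitary GFP-positive cells differed from that in another tissue for the following genes, by edgeR's test of the difference itself. Values are differences of log2 fold changes with adjusted p under 0.05. Where libraries of a group held no read the fitted value depends on the prior count and is no bound. Of these 47 differences, 16 lost their call when only the 12 WT libraries were fitted and 10 with an offset for gene length, all with the same sign. Over the anterior pituitary, the 12 WT libraries left Bloc1s2, Hba-a1, Clic5, Foxf2, Cavin2, Rgs5, Cd74, Exoc3l2, Hspb8, Sema3d, L3mbtl3, Sema4c and Six6 without a call, and the length offset Bloc1s2, Npr3, Foxf2, Esam, Cavin2, Rgs5, Exoc3l2, Plscr2, Sema4c and Six6. Over the cerebellum, Aqp1, Plvap and Axin2 lost theirs with the 12 WT libraries.

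Over the anterior pituitary, the higher differences were 20.12 for Bloc1s2, 18.11 for Foxf2, 14.86 for Car4, 14.23 for Npr3, 13.83 for Hba-a1, 13.08 for Clic5 and 12.36 for Fbln5. Further higher differences were 10.69 for Cxcl12, 10.18 for Plscr2, 8.82 for Fli1, 7.55 for Esam, 7.45 for Exoc3l2, 5.06 for Cd74, 3.34 for Cavin2 and 2.75 for Rgs5. The lower differences were -13.35 for Hspb8, -11.31 for Sema3a, -9.49 for Sema3d, -6.34 for Chn2, -5.74 for Six6, -5.1 for L3mbtl3, -4.25 for Trp53i11 and -4.18 for Sema4c. That of Rgs5, a pericyte marker, was lost without GFP-negative replicate 2 (adjusted p = 0.0537), and its levels in ECs were 123 and 59.4 TPM in the posterior and 41.2 and 45.2 TPM in the anterior pituitary. Cd74 was at 121 and 54.0 against 27.4 and 8.33 TPM in the same order.

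Over the cerebellum, the higher differences were 22.34 for Chrm2, 17.64 for Cyp26b1, 15.74 for Irx3, 15.18 for Ppp1r16b, 14.73 for Ntf3, 14.47 for Aqp1, 13.81 for Plscr2 and 13.02 for Exoc3l2. Further ones were 12.12 for Plvap, 11.67 for Lepr, 11.45 for Ednrb, 7.65 for S1pr1, 6.82 for Cav1 and 4.64 for Sparc. The lower differences were -15.1 for Ddc, -13.4 for Lsr, -12.24 for Mfsd2a, -10.72 for Lcn2, -10.2 for Ccdc141, -10.02 for Rab11fip1, -6.86 for Ocln, -6.57 for Slc2a1, -5.98 for Tfrc and -5.67 for Axin2. Single libraries moved some of these values: without GFP-positive replicate 1 the differences were -20.5 for Lcn2, -18.85 for Rab11fip1 and -10.44 for Ocln over the cerebellum and -9.02 for Six6 over the anterior pituitary, and without GFP-negative replicate 1 that of Sema3d was -3.93.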

How the results depend on the processing

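Of the 259 genes described, all 259 kept their direction and call with RLE scaling, 257 with DESeq2, 255 with no filter on low counts, 246 with a replicate block, 232 with a length offset, 210 with the 12 WT libraries and 160 of 252 with the 4 posterior pituitary libraries alone. With a library left out, 222 to 237 did. Gm10800 turned from higher to -0.23 without GFP-positive replicate 2, and was at 7.99 without GFP-negative replicate 2. The 1510 genes higher in GFP-positive cells became 731 with the 4 libraries alone and ranged from 1287 to 1667 with a library left out. The 1591 lower became 2890 with DESeq2, 1027 with 12 libraries and 534 with 4, and 972 (without GFP-positive replicate 2) to 1616 with a library left out. Enriched genes fell from 1150 to 644 and, in GFP-negative cells, from 781 to 340 with 4 libraries, and the latter were 1390 with a minimum of 1 TPM. Leaving out a library gave 1031 to 1234 and 531 to 869. Posterior minus anterior pituitary differences, 119 higher and 60 lower, were 649 and 468 with DESeq2, 568 and 436 with no filter, 39 and 21 with 12 libraries, and 67 and 39 with the length offset. With a library left out they were 144 to 352 and 70 to 311. Posterior pituitary minus cerebellum differences, 553 higher and 242 lower, were 1277 and 796 with DESeq2, 1095 and 573 with no filter and 323 and 140 with 12 libraries, and 156 were lower with the length offset. With a library left out they were 530 to 806 and 208 to 484. Enriched genes with a higher difference over the anterior pituitary (60) were 199, 226, 27 and 38 with DESeq2, no filter, 12 libraries and the length offset, and over the cerebellum (307) 496, 478, 196 and 198. With a library left out they were 72 to 213 and 295 to 454. Open starts of genes enriched in GFP-positive cells (77.7%) were 74.4% at a -log10 q over 5 and 73.4% at 100 bp, those of GFP-negative cells (53.8%) 49.3% at 100 bp, and those of all genes (51.5%) 49.1% at the stricter q, 49.3% by summit and 47.6% at 100 bp. The causes were not tested. Libraries with the same number deviated from their group means with correlations of -0.00378 to 0.0906, so the numbers were not taken as pairs, and the replicate block gave 1494 higher and 1521 lower genes. With 2 libraries a group, genes near 0 counts in 1 group have folds that depth cannot resolve.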
